A study of Drosophila melanogaster with 3 samples.

Results

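The regions described here are the strongest decile of the reproducible binding sites of E(spl)mgamma-HLH in the fly embryo. They were chosen by the pooled signal of each peak as the top decile (9.99%) of the dm6 reproducible set. The members are 297 peaks at promoters, 110 in introns, 39 between genes and 6 in other parts of genes, and the 4072 remaining peaks of the set serve for comparison. Chromatin immunoprecipitation with sequencing (ChIP-seq) was done with an antibody against GFP on whole Drosophila melanogaster embryos of mixed sex, aged 0 to 16 hours. The flies carried a transgene that stably expresses E(spl)mgamma-HLH with GFP fused to its C terminus, and chromatin was sonicated to fragments of 200 to 800 bp. All 3 samples are biological replicates of this 1 group, so there is no contrast between treatments, genotypes or ages. Whole embryos of this age span hold many tissues at many stages, and a peak does not tell in which of them the tagged protein was bound. The tagged copy is a transgene, and its level relative to the endogenous protein is not stated in the labels.

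E(spl)mgamma-HLH is 1 of the basic helix-loop-helix proteins with an Orange domain (bHLH-O proteins) encoded in the Enhancer of split complex. Genes of this complex are switched on by Notch signalling, and their products repress transcription, in large part through the corepressor Groucho, for example to hold back neural fate in cells next to a neural precursor. In DNA-binding assays such proteins prefer E-box and related hexamers such as CACGTG and CACGCG, and N-box sequences (CACNAG) were among the first sites described for them.

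The sequences under the highest summits were rich in A and T. The 5 windows that follow belong to the highest members whose summit window, 50 bp on either side of the summit, could be printed, and are shown because they carry the base composition described further on. They are the forward strand of dm6 in 1-based coordinates, from the RefSeq genome, and capitals mark runs of at least 8 bases made only of A and T.
CG14100, rank 2, chr3L:19590572-19590672: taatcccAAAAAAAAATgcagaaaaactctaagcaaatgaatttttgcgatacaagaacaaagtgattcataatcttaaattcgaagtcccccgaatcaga
cbt, rank 3, chr2L:481047-481147: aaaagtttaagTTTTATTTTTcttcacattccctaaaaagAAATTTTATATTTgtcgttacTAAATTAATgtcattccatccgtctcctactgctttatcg
ph-p, rank 6, chrX:2137280-2137380: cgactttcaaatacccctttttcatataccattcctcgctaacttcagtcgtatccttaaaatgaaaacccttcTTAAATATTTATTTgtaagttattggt
CG11050, rank 7, chr2L:6612676-6612776: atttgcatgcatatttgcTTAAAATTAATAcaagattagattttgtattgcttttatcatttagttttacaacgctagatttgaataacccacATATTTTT
Art3, rank 8, chr3R:15229481-15229581: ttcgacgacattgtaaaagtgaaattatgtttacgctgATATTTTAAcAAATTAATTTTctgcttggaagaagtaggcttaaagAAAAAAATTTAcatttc
None of the 5 held CACGTG, nor did any hold CACTAG, which were in only 0.664% and 2.65% of all member windows. The GC content of the 5 ran from 23.8% at CG11050 to 31.7% at CG14100 and ph-p. The longest run of A and T in each was 10 to 14 bases, and its median was 10 bases in members and 9 in remaining peaks.

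The motifs marked in the next windows were uncommon among members, and the windows show where they lay. The first set holds the highest printable members with CACGTG, with the N-box CACTAG and with GGTCACAC, the core of the element bound by the promoter factor M1BP. Capitals mark the motif, on either strand.
fok, rank 284, chr2L:20085220-20085320: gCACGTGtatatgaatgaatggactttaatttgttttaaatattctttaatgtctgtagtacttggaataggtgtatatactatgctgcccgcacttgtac
CG31431, rank 125, chr3R:21870497-21870597: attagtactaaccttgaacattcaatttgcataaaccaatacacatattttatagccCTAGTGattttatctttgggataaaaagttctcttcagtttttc
soti, rank 210, chr3R:14391378-14391478: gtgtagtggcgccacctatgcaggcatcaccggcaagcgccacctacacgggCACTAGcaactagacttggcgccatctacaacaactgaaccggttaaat
Su(Tpl), rank 240, chr3L:19903242-19903342: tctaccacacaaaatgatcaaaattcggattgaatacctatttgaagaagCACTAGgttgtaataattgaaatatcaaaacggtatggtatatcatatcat
slp2, rank 160, chr2L:3832474-3832574: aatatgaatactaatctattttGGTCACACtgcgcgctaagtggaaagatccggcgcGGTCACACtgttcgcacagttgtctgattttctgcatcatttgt
At fok the E-box was at the very edge of the window, whereas the N-boxes of the soti and Su(Tpl) regions were within a few bases of the summit. The intergenic region near slp2 held GGTCACAC on the same strand in 2 copies. The window near soti had the highest GC content of those printed, 55.4%.

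TATCGATA, the promoter element bound by DREF, was rare throughout, in 0.221% of member and 2.14% of remaining summit windows. Its inner letters CGATA differed in more peaks, with 11.1% against 18.1%. The next 3 windows are the highest-ranked remaining peaks with TATCGATA that could be printed, and capitals mark the element. They are examples and not typical of the remaining peaks.
dsd, rank 622, chr3R:27607402-27607502: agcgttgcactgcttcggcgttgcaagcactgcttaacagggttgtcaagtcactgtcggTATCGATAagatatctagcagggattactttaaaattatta
CG7369, rank 638, chr3L:22741628-22741728: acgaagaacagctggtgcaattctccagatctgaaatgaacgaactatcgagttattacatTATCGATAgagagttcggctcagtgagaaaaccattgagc
Sfmbt, rank 721, chr2L:13176823-13176923: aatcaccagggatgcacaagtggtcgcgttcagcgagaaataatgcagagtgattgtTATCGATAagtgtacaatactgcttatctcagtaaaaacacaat
In these 3 windows the element lay close to the summit, each was in a promoter, and GC content was 39.6 to 42.6%. A single member, the promoter peak of Alg3 at rank 386, had TATCGATA in its summit window.

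Signal in the reproducible set is the authors' own value for each peak, from the pooled alignments, and it chose the members, so it is given only as a description. Members ran from 4116.86 down to 486.571 with a median of 650.623, and the remaining peaks from 484.801 to 114.425 with a median of 184.096. The threshold fell in a continuous slope: the last 3 members were at Svil (487.605), gammaTub23C (486.840) and CG4297 (486.571), and the first 3 peaks below were nearest to CG18371 (484.801), Kah (483.911) and CG17075 (483.817). Members covered 143356 bp. Their median width was 304.5 bp against 384 bp for remaining peaks, and it went from 366 bp in the highest quartile of the members to 260 bp in the lowest quartile. Mean widths were close, 317 bp for members and 323 bp for remaining peaks. The width of 384 bp was both median and upper quartile of remaining peaks, whose lower quartile was 224 bp against 269 bp for members.

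Member summits lay at promoters more often than the remaining summits, and closer to start sites. A summit was called promoter when a transcription start site (TSS) of any gene lay within 500 bp. That class took 297 members (65.7%, Wilson 95% interval 61.2 to 69.9%) and 1968 remaining peaks (48.3%, 46.8 to 49.9%). Introns held 110 members (24.3%, 20.6 to 28.5%) against 36.9% of remaining peaks, and intergenic sequence 39 members (8.63%, 6.38 to 11.6%) against 13.6%. Coding sequence, 5′ UTRs and 3′ UTRs outside promoters held 2 members each. Protein-coding TSSs were a median of 234 bp from member summits and 674 bp from remaining summits. Only 17 members (3.76%) lay more than 10 kb from such a TSS, against 426 remaining peaks (10.5%). Wilson intervals cover counting error only, since peaks of 1 pooled set are not replicates.

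The promoter share fell along the ranking, though not at every step, and the fall did not stop at the threshold. It was 59.7% in the second decile, 54.2% in the third, 47.3% in the fourth and 50.9% in the fifth. The sixth and seventh had 47.1% each and the last 40.1%, while the median distance to a TSS reached 1315.5 bp in the last decile. Within the members the promoter share was flat: 78, 69, 76 and 74 of 113 peaks in the 4 quartiles from high to low.

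**Figure D1:**
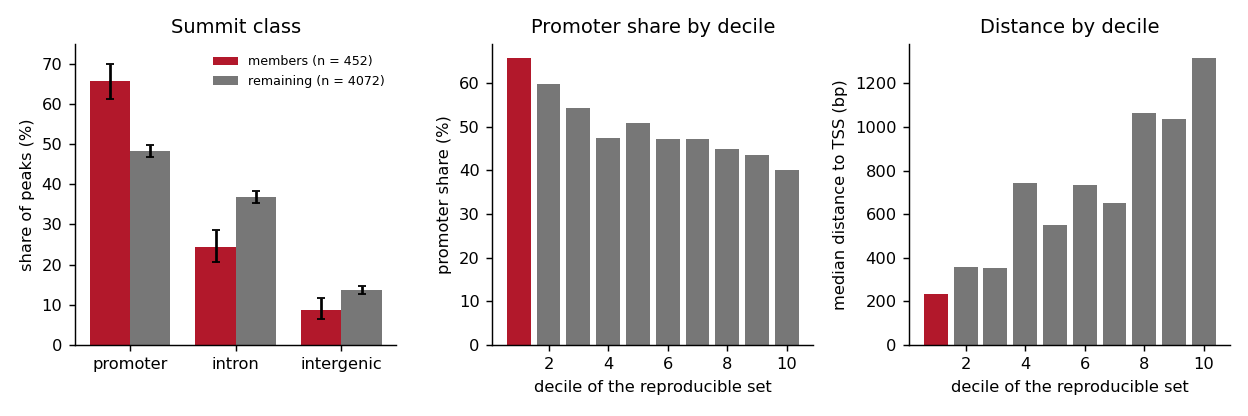
Left, share of peaks (%) by summit class for members and remaining peaks, with Wilson 95% intervals; middle and right, promoter share (%) and median distance to a protein-coding TSS (bp) in each decile of the reproducible set, the members in red. The promoter share is 65.7% in the first decile and 40.1% in the last.

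Each replicate ranked the reproducible peaks in its own order, and the class difference was present in every one of the 3 orders. With the top decile of the matched peaks in each replicate set against the rest, the promoter share was 68.0% against 47.8% in replicate 1, 59.9% against 49.1% in replicate 2 and 67.5% against 48.02% in replicate 3. The mean difference was 16.8 ± 5.22 percentage points (SD, n = 3; exact two-sided sign-flip permutation p = 0.25). That p is the smallest that 3 replicates allow, so no difference in this family could pass 0.05, and over the 9 differences tested the Benjamini-Hochberg adjusted p was 0.321 wherever all 3 replicates had the same sign. The median TSS distance was lower in the top decile in all 3 replicates, by a mean difference of −436 ± 84.9 bp (SD, n = 3; exact p = 0.25). The intergenic share was also lower in all 3, by −4.86 ± 1.31 percentage points (SD, n = 3; exact p = 0.25). Both differences were several times the spread between replicates. The set and its pooled ranking were made from these same replicates, so the 3 orders show how the difference varies and are no separate experiment.

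**Figure D2:**
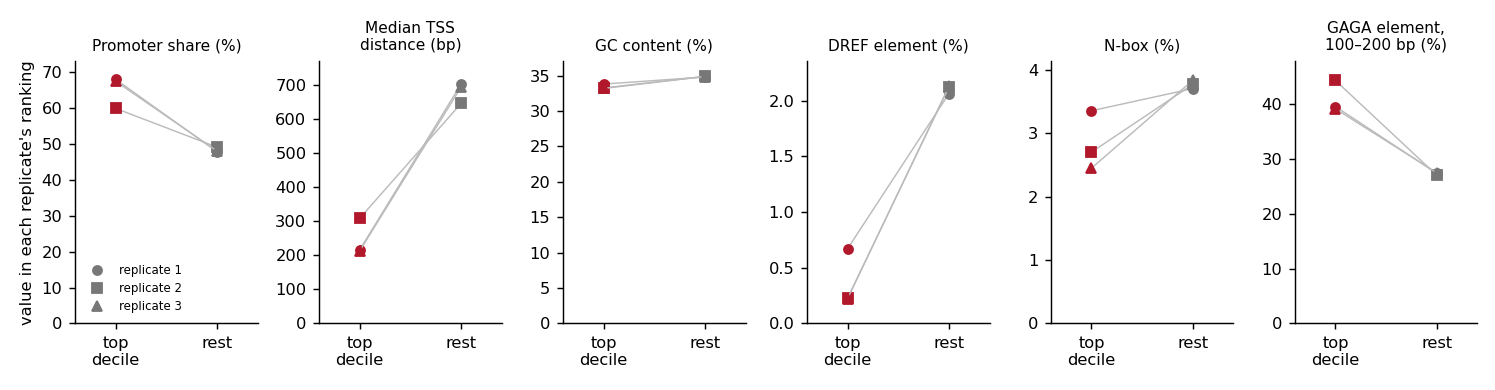
Values in the top decile (red) and the rest (grey) of the matched reproducible peaks when each replicate ranks them, 1 symbol per replicate joined by a line, for promoter share (%), median TSS distance (bp), GC content (%), and shares of peaks with the DREF element, the N-box and the GAGA element (%). All 3 lines slope the same way in each panel shown, and replicate 2 has the lowest promoter share in its top decile, 59.9%. CACGTG and TSSs on both strands, whose differences changed sign between replicates, are not shown. The GAGA panel counts the element beside the summit, at the distance chosen after the profile was seen (mean difference 13.7 percentage points). In the summit window the GAGA difference had the opposite sign (−2.10 percentage points).

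At promoters, most member summits stood upstream of the start site, at a median slightly farther from it than the remaining promoter summits. Of the 283 promoter members near a protein-coding TSS, 247 (87.3%) were upstream of the nearest, against 87.0% of remaining promoter summits. The interval from 150 to 100 bp upstream held 24.0% of members and 18.2% of remaining summits, while the last 50 bp before the TSS held 7.77% of members and 15.4% of remaining summits. The median position of promoter members was −114 bp and that of remaining promoter peaks −99 bp. TSSs of protein-coding genes on both strands lay within 500 bp of 121 promoter members (40.7%, 35.3 to 46.4%) and of 37.7% of remaining promoter summits. That difference changed sign between replicates (7.66, −5.32 and 6.71 percentage points; mean 3.02 ± 7.24, SD, n = 3; exact p = 0.5), with replicate 2 opposite to the others. With promoters and strands taken within 200 bp it was 10.2 percentage points and had the same sign in all 3 replicates (exact p = 0.25).

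**Figure D3:**
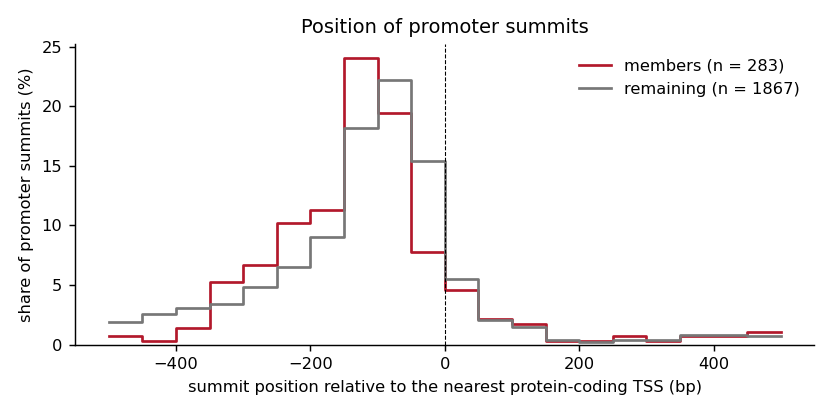
Position of promoter summits relative to the nearest protein-coding TSS (bp, negative upstream, 50 bp bins) as a share of promoter summits (%), for 283 members and 1867 remaining peaks. Members peak from 150 to 100 bp upstream (24.0%) and are fewer than remaining peaks in the last 50 bp before the TSS (7.77% against 15.4%).

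Base composition at member summits formed a deeper and narrower trough. Mean GC content in the summit window was 33.4% (SD 8.12 over peaks) for members and 34.9% (SD 8.87) for remaining peaks, while windows 500 bp away had 44.5% and 44.1%. Averaged over 21 bp at the summit itself it was 31.6% against 34.2%. At 100 bp to the left it was 42.4% in members and 38.2% in remaining peaks, and at 100 bp to the right 43.6% and 38.9%. At 200 bp the gap was smaller, with 43.7% and 42.4% to the left and 44.4% and 43.0% to the right. The difference at the summit was in promoters, with 33.0% (SD 7.997) in promoter members against 36.1% (SD 9.70), and not outside them, where the values were 34.0% and 33.8%. For comparison, windows of the same length before the starts of all 13945 protein-coding genes had a mean of 41.2%. In the orders of the 3 replicates the top decile had lower GC content each time, by −1.44 ± 0.385 percentage points (SD, n = 3; exact p = 0.25). In windows of 100 bp to each side, which take in the shoulders of the trough, the sign turned to 0.540 percentage points. Runs of at least 10 bases of A and T were in 249 member windows (55.1%, 50.5 to 59.6%) and in 48.8% of remaining windows.

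TATCGATA was nearly missing from member summits but was found to the side of them. It stood in the summit window of 1 member (0.221%, 0.0391 to 1.24%) and of 87 remaining peaks (2.14%), and in promoters of 1 of 297 members (0.337%) and 84 of 1968 remaining peaks (4.27%). Of the windows before all protein-coding starts 6.21% held it. From the first decile of the set to the fifth it was in 1, 11, 2, 10 and 9 windows, so the third decile was also low. With both sides together, it was in 6 members (1.33%) and 1.99% of remaining peaks at 50 to 100 bp from the summit, in 11 members (2.43%) and 1.60% at 100 to 150 bp, and in 7 members (1.55%) and 1.01% at 150 to 200 bp. At 300 to 350 bp the shares were 0.221% and 0.467%, so the order of the sets varied with distance, on few members. The orders of the 3 replicates all put fewer TATCGATA windows in their top decile, by −1.73 ± 0.295 percentage points (SD, n = 3; exact p = 0.25). The mean difference was −0.971 when the top 2 deciles were taken and −0.739 in windows of 25 bp to each side, with all 3 replicates lower in both cases. The shorter CGATA, which TATCGATA contains and which is the core of BEAF-32 sites, was in 34 promoter members (11.4%, 8.31 to 15.6%) and 25.9% of remaining promoter peaks, against 28.4% of windows before starts. Outside promoters the 2 sets had 10.3% and 10.8%.

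The GAGA element GAGAG, the letters bound by the GAGA factor Trl, was likewise rare at the summit and frequent beside it. The summit window held it in 34 members (7.52%, 5.43 to 10.3%) and 10.1% of remaining peaks, against 13.3% of windows before starts. At 100 to 200 bp from the summit, a distance chosen after the profile was seen, it was in 189 members (41.8%, 37.4 to 46.4%) and 1110 remaining peaks (27.3%, 25.9 to 28.6%). The share was 35.8% in the second decile and at most 28.3% in the later ones. It was higher in members both at promoters (36.4% against 24.5%) and outside them (52.3%, 44.4 to 60.0%, against 29.8%). Each replicate's own top decile had more of it, with 39.6, 44.4 and 39.2% against 27.4, 27.0 and 27.5% in the rest, a difference of 13.7 ± 3.11 percentage points (SD, n = 3; exact p = 0.25, the smallest possible). In the summit window itself the difference was −2.10 ± 0.562 percentage points, a window of 100 bp to each side reversed it to 4.63, and in windows of 25 bp to each side it was −0.523 without the same sign in all 3 replicates (exact p = 0.5). A match shows the letters only and no binding by Trl.

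**Figure D4:**
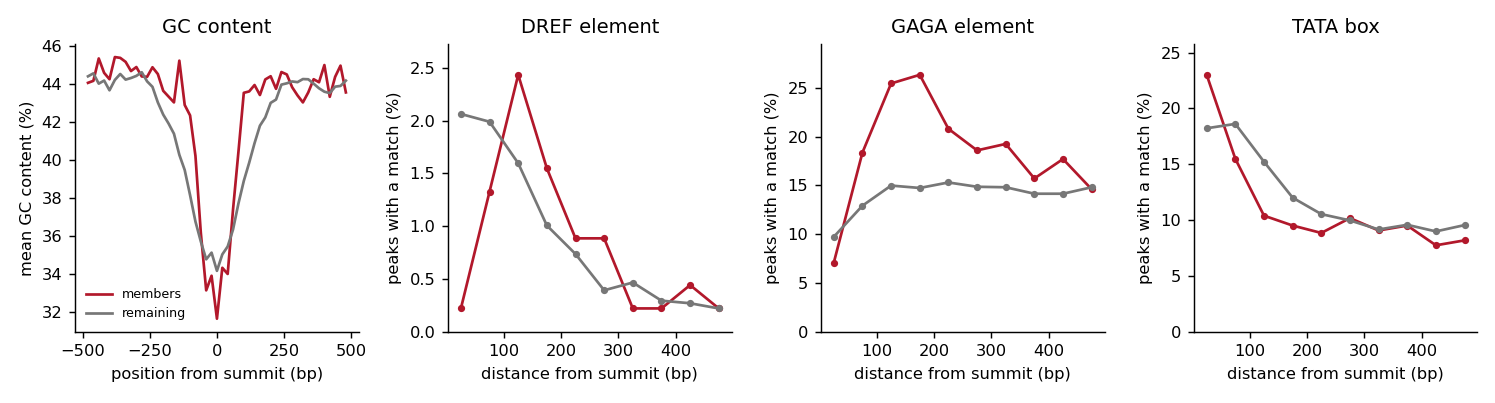
Mean GC content (%, 21 bp running mean) by position from the summit (bp), and share of peaks (%) with the DREF element, the GAGA element or a TATA box on either strand in 50 bp steps of distance from the summit, both sides together, for members (red) and remaining peaks (grey). In members the GAGA element rises to 26.3% at 150 to 200 bp and the DREF element to 2.43% at 100 to 150 bp. The letters of the TATA box, TATAAA, are most frequent within 50 bp of the summit (23.0%), where A and T are also most frequent.

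Hexamers preferred by bHLH-O proteins were uncommon in members and remaining peaks alike. CACGTG was in 3 summit windows (0.664%), those of Dus2, fok and RpL7, against 0.835% of remaining peaks and 1.88% of windows 500 bp from member summits. Its difference in the orders of the replicates was −0.0911 ± 0.287 percentage points (SD, n = 3; exact p = 1), smaller than the spread. CACGCG was in 7 member windows (1.55%) and 1.13% of remaining windows, and the Su(H) site, through which Notch acts, in 2 (0.442%) and 1.03%. The N-box CACTAG was in 12 members (2.65%) and 3.81% of remaining peaks, with a lower share in the top decile of all 3 replicates (−0.937 ± 0.532 percentage points, SD, n = 3; exact p = 0.25). When the top 2 deciles were taken the difference was −0.309, and the replicates no longer had the same sign (exact p = 0.75). The highest-ranked of the 12 were at CG31431 (rank 125) and CG9399 (rank 170). Windows 500 bp from the summit held CACTAG less often, in 1.33% for members and 1.69% for remaining peaks. Of the other N-boxes, CACAAG was in 14 members, CACGAG in 2 and CACCAG in 9. Each of these was rarer at the summit than 500 bp away, in members and in remaining peaks. In remaining peaks the shares were 3.68, 1.42 and 2.50% at the summit and 4.62, 2.57 and 4.43% at 500 bp. TATAAA stood in 77 promoter members (25.9%, 21.3 to 31.2%) against 17.9% of remaining promoter peaks and 20.3% of windows before starts. The hexamers furthest below the remaining peaks were ATCGAT (1.55% against 6.19%) and AATCGA (2.65% against 7.17%), and those furthest above were ATTTAA (33.4% against 25.5%) and AATTTG (22.6% against 15.6%).

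Of 13945 protein-coding genes, 573 (4.11%) had a member summit in the gene or within 1 kb upstream, and 26.4% had any reproducible summit. The 2 highest members were at Ugalt, which encodes a UDP-galactose transporter, and at CG14100. The signal at Ugalt was 1412.43, 1345.24 and 1398.81 in the lists of replicates 1, 2 and 3, and at CG14100 it was 1460.92, 1049.46 and 1218.72. Replicate 1 thus put CG14100 first and the others put Ugalt first. The promoter peak of px, at rank 4 and −202 bp from the TSS, ranked 10, 4 and 6. Ranks 11 to 25 included mRpL41 of the mitochondrial ribosome (rank 11, −126 bp), PNPase, an RNA-degrading enzyme of mitochondria (rank 15, −86 bp), and CIA30, a complex I assembly factor (rank 25, −96 bp). Others in this range were Shc, an adaptor of receptor tyrosine kinases (rank 13, −112 bp, between Shc and Atat), Lk6, a kinase of the initiation factor eIF4E (rank 14, intron, −974 bp), and larp, a La-related RNA-binding protein (rank 18, −331 bp). They also included Sox14 (rank 19, −248 bp) and HmgZ, an HMG-box chromatin protein (rank 22, −553 bp). The rest were CG1888 (rank 12), CG9663 (rank 16), CG5611 (rank 17), CG32772 (rank 20), CG5098 (rank 21), GstE13 (rank 23) and MFS10 (rank 24). All these 15 peaks ranked between 7 and 52 in every replicate. The widest spread in this range was at Shc, with ranks 8, 50 and 8, and CG5098, with 15, 52 and 14. In both cases replicate 2 was the low one, whereas at larp (28, 10 and 29) and MFS10 (29, 16 and 31) it was the high one.

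Several genes held more than 1 member. CHES-1-like, which encodes a forkhead factor, had 4 within its introns at ranks 119, 176, 344 and 361, and Hr4, which encodes a nuclear receptor of the ecdysone response, had 3 at ranks 131, 169 and 326. Another 29 genes had exactly 2, among them ush, the host of the peak near cbt, osa, Trl, NFAT and kirre. Of the 573 genes, 222 also had a summit among the remaining peaks. There were 15 pairs of member summits within 2 kb, the closest 200 bp apart in CG9663 and 613 bp apart at ph-p.

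Members at chromatin genes are described by list. Each count is to be read against the 4.11% of all genes, and against the 15.6% of genes with any reproducible summit. Such a summit was present at 26.4% of all genes. Among the listed genes it was at 13 insulator and architectural, 9 Polycomb, 10 Trithorax and remodelling and 8 corepressor genes. Of 19 insulator and architectural protein genes 5 had a member: Chro (rank 5), Trl (rank 58), Cp190 (rank 137), mod(mdg4) (rank 140) and the histone kinase gene JIL-1 (rank 274). Of 19 Polycomb group genes 3 had one, namely the neighbours ph-p (rank 6) and ph-d (rank 151), and E(z), the histone methyltransferase (rank 347). Of 21 Trithorax and remodelling genes 3 had one: osa (rank 51) and brm (rank 106) of the Brahma complex, and trx (rank 103). Of 11 corepressor genes 3 had one: Gug, the fly Atrophin (rank 96), gro (rank 105) and Mi-2 (rank 240). The Mi-2 peak is the one printed above under Su(Tpl), whose TSS was nearer. The replicate ranks were 35, 65 and 68 at Trl, 119, 157 and 139 at Cp190, and 104, 321 and 90 at mod(mdg4), whose summit was nearest to another gene's TSS. At JIL-1, in an intron, the ranks were 539, 173 and 317, so replicate 2 was low at mod(mdg4) and high at JIL-1.

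Signalling genes had members both in introns and at promoters. Beside their counts stand 4.11% of all genes and 15.6% of the genes with any reproducible summit. Such a summit was present at 11 EGFR, 10 Notch, 10 Wg, 9 Dpp, 12 ecdysone response and 10 Hippo genes. The symbols Dl and nct (Notch), phl (EGFR), Dfz3 (Wg) and Eip71CD (ecdysone) were not found in the annotation and were not counted. Of 15 EGFR pathway genes 4 had a member: aos (rank 157), S (rank 182), the ligand gene spi (rank 246) and drk, which encodes a receptor adaptor (rank 299, with mars nearer). Of 17 Notch pathway genes 2 had one, gro and numb (rank 173; 146, 185 and 151 in the replicates). Of 17 Wg pathway genes 2 had one, the receptor gene fz (rank 143) and the kinase gene sgg (rank 431), and of 16 Dpp pathway genes 2, the effector gene Mad (rank 271) and the inhibitor gene sog (rank 396). Of 13 ecdysone response genes 2 had one, Hr3 (rank 63; 67, 59 and 65) and Hr4. The Hippo list had 1 of 14, dco (rank 376). The intronic peaks of aos (268, 107 and 158), fz (386, 66 and 190) and Mad (515, 171 and 279) ranked highest in replicate 2, as did the promoter peak of sgg (361, 336 and 790). The intronic peaks of sog (360, 533 and 387) and drk (296, 330 and 337) did not, and the promoter peak of spi (177, 623 and 181) ranked lowest there.

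Neural and other developmental lists with a member had 1 to 3 genes each, against 4.11% of all genes and 15.6% of genes with any reproducible summit. Such a summit was at 8 neuroblast, 8 neuronal and sensory, 9 axon guidance, 7 mesoderm and 7 cell cycle genes. Of 21 neuroblast genes 3 had one (14.3%): brat (rank 135), numb and baz, a polarity gene (rank 183). Of 16 neuronal and sensory genes elav alone had any (6.25%), at ranks 98 and 385, and of 18 axon guidance genes PlexA alone (5.56%; rank 362; 249, 1182 and 237). Among 12 mesoderm genes zfh1 had one (8.33%; rank 225; 428, 152 and 228), and among 19 cell cycle genes Dp, the partner of E2F (5.26%; rank 200). No member was found at any of the 7 E(spl) bHLH repressor genes, of which 4 had a reproducible summit, nor at 8 Bearded family, 5 other bHLH-O, 10 proneural, 10 Hox and 21 segmentation genes. Only 2, 2, 2, 4 and 2 genes of the last 5 lists had a reproducible summit. At the shares above, lists this small can hold no member, so the zeros are not a result about these genes. A member between genes of the E(spl) complex, nearest to E(spl)malpha-BFM (rank 244; 337, 224 and 235 in the replicates), lay more than 1 kb upstream of that gene and counted for none of the genes of the complex. The Hh, JAK/STAT, JNK, apoptosis and insulin and TOR lists had none either, with 4, 4, 4, 4 and 8 genes that had a reproducible summit. Some symbols of these lists were not found in the annotation, so their genes were not checked. They were h (other bHLH-O and segmentation lists), otd (segmentation) and Tor (insulin and TOR).

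Ribosomal protein lists are given beside all genes, of which 4.11% had a member, and beside the genes with any reproducible summit, of which 15.6% had one. Of 86 cytoplasmic ribosomal protein genes 52 had a reproducible summit but 6 a member (6.98%): RpL32 (rank 134, with CG7943 nearer), RpS27 (165), RpL34b (180), RpL7 (294), RpL23A (370) and RpS20 (404). Of 73 mitochondrial ribosomal protein genes 29 had a summit and 5 a member (6.85%): mRpS10 (rank 8), mRpS23 (10), mRpL41 (11), mRpL23 (44) and mRpS2 (275, with Mon1 nearer). The first pair of these shared their promoters with Art3 and CenG1A, whose TSSs were nearer. Of the genes with a summit, 11.54% in the cytoplasmic and 17.2% in the mitochondrial list had a member; the difference between the lists was not tested. Translation factors had 2 of 25, eIF6 (rank 29) and eIF3c (rank 434). Heat shock genes had 2 of 21, Hsp27 (rank 76; 72, 79 and 82) and Hsc70-5 (rank 426), and the RNA-binding regulators msi (rank 138) and orb (rank 342, with Cdc16 nearer) were 2 of 20. Among clock genes Fbxl4 (rank 270, with Dus2 nearer) was 1 of 9. Proteasome subunit, odorant and gustatory receptor, and odorant binding protein genes had none, of 46, 120 and 51 genes. Only 12, 3 and 2 of these genes had a reproducible summit.

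Replicate ranks come from the alignments behind the pooled signal and are described without a test. A peak of the list of replicates 1, 2 and 3 contained the summit of 448, 446 and 449 members. Each of these matches had a q-value below 0.05, whereas 23.2%, 43.2% and 29.2% of all peaks in the 3 lists did. The top ranks of a replicate, as many peaks of its list as there are members, held 402 members in replicate 1 (88.9%), 371 in replicate 2 (82.1%) and 406 in replicate 3 (89.8%). All 3 replicates placed 308 members (68.1%) there, 2 placed 112, 1 placed 31 and none placed 1, the promoter peak of by at rank 440. In the highest quartile of members, all 113 peaks were in the top ranks of all 3 replicates, and in the lowest quartile 12 were. Spearman's rho across members was 0.844 between replicates 1 and 3 (446 peaks), 0.700 between 2 and 3 (444) and 0.630 between 1 and 2 (442), and it was 0.741, 0.622 and 0.583 across the remaining peaks. The values share their peaks and their pooled selection. Member summits were also placed more closely, with median offsets from the replicate summit of 7, 9 and 8 bp against 16, 16 and 15 bp.

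**Figure D5:**
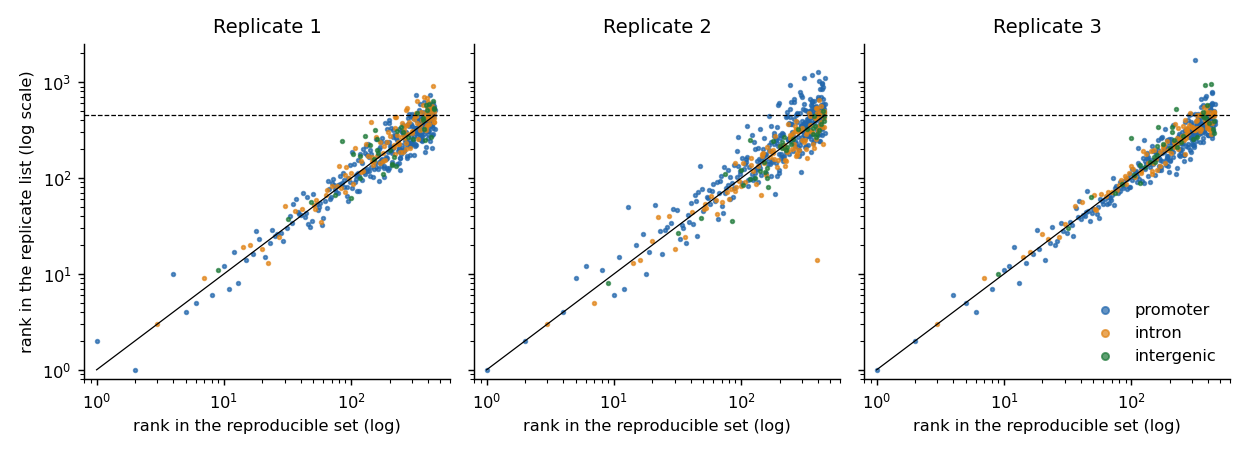
Rank of each member in the list of each replicate against its rank in the reproducible set (both log scales), coloured by class, with the line of equal ranks and, dashed, the last of the top ranks. The points lie along the line, and 371 members are within the dashed line in replicate 2.

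Replicate 2 differed by class. When the 441 members matched in all 3 replicates were ordered among themselves in each, promoter members had a median place of 208 in replicate 1, 239.5 in replicate 2 and 211.5 in replicate 3. Intron members had 244, 195.5 and 236, and intergenic members 242, 214 and 245. Replicate 2 gave the lowest place to 146 of 288 promoter members (50.7%) and to 26 of 110 intron members (23.6%). It gave the highest place to 95 promoter members (33.0%) and 62 intron members (56.4%). Remaining peaks showed the same order of classes in a milder form, with replicate 2 lowest for 45.3% of promoter and 29.2% of intron peaks. The 62 members in the top ranks of replicates 1 and 3 but not 2 were promoters in 55 cases (88.7%), and 33 had TSSs on both strands. Of the 308 in the top ranks of all 3 replicates, 198 were promoters, 79 were in introns and 80 had TSSs on both strands. The 13 found there only in replicate 2 held 7 promoters and 5 introns, and none of the 13 had TSSs on both strands, on few promoters. Among the 13 was the second CG9663 peak described below. The cause of this split was not tested.

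Most members had close ranks in the replicates: the ratio of the highest to the lowest rank had a median of 1.75 and was under 2 for 285 of 441 (64.6%). The 5 narrowest were cbt (rank 3 in all), rdx (304, 307 and 305), TRAM (58, 58 and 61), zf30C (395, 406 and 418) and CG8360 (34, 32 and 32). The 5 widest were the second CG9663 peak (688, 14 and 561), a peak in coding sequence of otp nearest to Cib2 (91, 19 and 170), Eno, which encodes enolase (451, 210 and 1719), Xe7 (122, 929 and 169) and the intergenic peak near CG31668 (246, 36 and 86). At CG9663 the replicate 2 list had 1 peak, of rank 14, over both member summits, which lie 200 bp apart. Members without a containing peak in some replicate were 11 in number, namely those at Bdp1, l(2)k01209, CG3961, gce, CG43245, Gdap2, nrv1, CG7841, CG46429, dnc and by. When any overlap counted, CG7841 lacked a peak in replicate 1, and by lacked one in replicates 1 and 3, but no member lacked one in replicate 2.

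Intergenic peaks were few among the members, and not all were far from genes, since their distances to a protein-coding TSS began at 502 bp. The highest intergenic member was near tara (rank 9), followed by those near CG13323 (rank 32, 11912 bp), CycB (rank 48) and CG17896 (rank 75, −509 bp). The highest in the other classes were cbt in an intron (rank 3), Cib2 in coding sequence (rank 61), baz in a 5′ UTR (rank 183) and CG7872 in a 3′ UTR (rank 261). The 5 members farthest from a protein-coding TSS were nearest to CG43245 (−32049 bp, intergenic), CG11629 (30815 bp, promoter of a noncoding gene), CG13482 (−25270 bp, in an intron of fz), Hr4 (21981 bp, intron) and lgs (19099 bp, intergenic). A TSS of a noncoding gene lay within 500 bp of 26 members (5.75%) and 4.52% of remaining peaks. By chromosome arm, 2L held 97 members, 2R 81, 3L 77, 3R 107, X 88 and 4 held 2. Arm 3L had 17.0% of members (13.9 to 20.8%) and 21.3% of remaining peaks, and the other arms differed by less.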

How the data were processed

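The members are 452 of the 4524 peaks of the reproducible set, ranked by column 7. The deposited peak lists of the 3 replicates, their pooled list and the reproducible set in dm6 were used. Per the deposited text records, the reproducible set was derived from the pooled list and all 3 replicate lists, and each list also had 1 further input, which was not analysed here. Aligner, caller and reproducibility cutoff are not given in these sources. Column 7 holds the signal the authors deposited, a coverage-type value not normalized between lists, so it only ordered peaks within a list. Column 9 holds the deposited q-value on the −log10 scale, and column 10 the deposited summit offset. The files hold no read counts, so depth is unknown. The replicate 2 list held 30000 peaks, the others 23367 and 24251. All sample columns used were mapped, and dm3 lists were not used here.

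Summits were classed in the order promoter, 5′ UTR, CDS, 3′ UTR, intron, intergenic, with Ensembl release 115 (BDGP6.54), and 101 bp windows were read from the RefSeq genome. Motifs were searched on both strands. A replicate peak matched when it contained the member's summit, and replicate ranks are those in its whole list; the top ranks are its highest 452. Differences between the top decile and the rest were taken per replicate and tested by exact two-sided sign-flip permutation, with Benjamini-Hochberg adjustment over 9 differences. The GAGA measure at 100 to 200 bp was added later and lies outside that family. The motif search was tested on simulated data. Python 3.11.15, numpy 2.4.6, pandas 2.3.3 and scipy 1.17.1 were used.

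The members, the 35 gene lists (17 symbols not found) and the 17 motifs were chosen with earlier results of these data known. Named genes were the 25 highest members, the highest of each class, genes with at least 3 members, listed genes with a member, the 5 widest and 5 narrowest in replicate rank, unmatched members, 3 peaks on each side of the threshold and the 5 farthest from a TSS. Windows were printed for the highest members with or without a motif, leaving out arm 2R and UTRs. Genes named outside this rule were chosen after their values were seen.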

Additional observations from a re-analysis of the deposited data

How the results depend on the processing

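No paired analysis was possible because the samples form a single group. Of the alternatives run, 15 moved a value beyond its error and 6 reversed it, and the others kept the direction or stayed within the error, though some differences between the orders changed in size. The difference in GC content turned to 0.540 percentage points in windows of 100 bp to each side, and that of GAGAG to 4.63, since those windows take in the shoulders of the summit. The CACGTG difference turned to 0.0734 with any overlap, 0.100 in windows of 25 bp to each side and 0.0571 in windows of 100 bp to each side, and ran from −0.175 to 0.0749 when 1 replicate was left out. In the upper 5% of each order the difference was −0.557 for CACGTG, −2.30 for CACTAG, −3.23 for GAGAG and 0.747 for TSSs on both strands, and in the top 2 deciles −0.149 for CACGTG and −0.820 for GAGAG. In windows of 25 bp to each side it was −0.455 for CACTAG. For TSSs on both strands it was 10.2 with promoters of 200 bp and ran from 0.695 to 7.18 when 1 replicate was left out. The promoter difference was 11.1 with promoters of 200 bp. The promoter share of members was 46.7% with promoters of 200 bp and 76.8% with 1000 bp. Mean GC content was 36.4% in windows of 100 bp to each side. For TATCGATA the share was 0% in the top 4.996% of the set, 1.33% in the top 20.004% and 1.77% in windows of 100 bp to each side. For CACTAG it was 1.33% in the top 4.996% of the set, 1.11% in windows of 25 bp to each side and 5.75% in windows of 100 bp to each side. Genes with a member numbered 294 in the top 4.996% of the set, 1056 in the top 20.004% and 244 by gene body alone, and cytoplasmic ribosomal protein genes 3, 11 and 1. The alternatives that leave out a replicate were chosen after seeing the data for the member values: the promoter share then ran from 63.9 to 68.1%, and 417 to 424 of the members kept their place. Ranking by the mean log rank of all 3 replicates kept 436.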
